A study of Caenorhabditis elegans with 2 samples.

Results

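Of the 6712 reproducible LIN-35 binding peaks in first-stage larvae of Caenorhabditis elegans, 735 (10.95%, 95% Wilson interval 10.2 to 11.7%) had their summit in distal intergenic sequence. A summit, the base of highest enrichment in a peak, was counted as distal when it lay inside no protein-coding gene and more than 2000 bp from every protein-coding transcript start. Stretches between 2 convergent genes, which end toward each other, were left out. Among the reproducible peaks the members were therefore chosen by position only, and sequence took no part in the choice. Signal entered through the reproducible list itself, which left out weaker peaks of the authors' wider lists. The remaining summits were 5469 within 2000 bp of a start, 404 in gene bodies farther from starts, and 104 between convergent genes.

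LIN-35 is the worm pocket protein of the retinoblastoma family. Within the DREAM complex it works with E2F and DP proteins, which read E2F sites, and with the MuvB subunits, whose LIN-54 protein reads the cell cycle homology region (CHR), and the complex represses cell cycle genes mostly from sites close to their starts. In worms LIN-35 also acts outside the cell cycle, for example in restricting germline genes in the gut.

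The chromatin immunoprecipitation with sequencing covered 1 group with 2 biological replicates, so no condition was compared and no untreated or control sample entered this account. The worms were whole L1 larvae of strain YL398, pooled male and female, of unknown age. The labels give the strain's genotype as unc119(ed3)III with the insertion vrIs55, pGES-1::LIN-35::GFP FLAG with the LIN-35 3'UTR and unc-119 (+). Expression of the tagged LIN-35 is under the ges-1 promoter, which is active in the gut, while the chromatin came from whole animals. The antibody is labelled lin-35 in one field and the target is described as eGFP-lin-35 in another, so whether endogenous LIN-35 was also pulled down cannot be told apart from these labels. Fragments of 150 to 350 bp are stated and no extraction protocol, and the read depth is unknown. Each peak carries a signal value from the authors' peak caller, used here to rank peaks within 1 list, since its size cannot be compared between lists.

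The following 30-base stretches, from the RefSeq genome of assembly WBcel235 (ce11), are shown because they hold the sequence matches on which the results below turn. Each is named by the protein-coding genes on either side and reads 5′ to 3′ on the stated strand. Capitals mark the match, and all matches were searched on both strands. An E2F site was TTCCCGC in its first form, with TTCGCGC as another form, TTGCCGC as a further form and TTGGCGC as the last form. A CHR was TTTGAA or else the related TTCGAA. The GATA site was TGATAA, the E-box was CACGTG and the GA repeat was GAGAGAGA. The B box is the internal promoter element of tRNA genes. They come from the strongest members with each match, taken from chromosomes II to X.
E2F, R12C12.7 and H12I13.1, chrII:6061716-6061745, plus strand: tgtgcaatcaaTTGGCGCgtaattcaaaac
E2F, glr-4 and cki-1, chrII:7807099-7807128, plus strand: gtcgaaatttcTTGGCGCcaaaagtaaaat
E2F, srbc-2 and T20D4.15, chrV:3391159-3391188, plus strand: gcgtacatgtgTTGGCGCcgtgccaagtta
CHR, R12C12.7 and H12I13.1, chrII:6061726-6061755, minus strand: taaaaatttagtTTTGAAttacgcgccaat
CHR, gid-8 and F53E2.2, chrV:1471771-1471800, plus strand: gaaatcaacattTTTGAAttcaaatccgct
GATA, ZK899.6 and gap-2, chrX:9465771-9465800, minus strand: gtcacaccgaatTGATAAggggtgtgtatt
GATA, cpt-1 and Y46G5A.18, chrII:12798966-12798995, minus strand: atctcgaacaacTGATAAgcaacccccacc
GATA, irld-18 and dmd-6, chrIV:14594395-14594424, minus strand: aactccattgtgTGATAAaacagtgaagaa
E-box, aakg-1 and gldi-8, chrIII:12583678-12583707, plus strand: aagagagacaggCACGTGtggtccaggagg
E-box, D1046.4 and tpra-1, chrIV:8949804-8949833, plus strand: tggtctgaaactCACGTGtccgcgcccttt
E-box, lpin-1 and letm-1, chrV:13658749-13658778, plus strand: attctcccatacCACGTGgtgtttcagacc
GA repeat, srw-60 and nhr-88, chrII:2974104-2974133, plus strand: cgcgaggcgcaGAGAGAGAgagggcgccga
GA repeat, T04C4.3 and fnip-2, chrIV:2219659-2219688, minus strand: cgagagatacaGAGAGAGAcgcagtgtact
B box, ser-1 and cdh-9, chrX:16590933-16590962, minus strand: gaaggtcgccGGTTCGAACCCggccaggac
B box, lrch-1 and lite-1, chrX:6220072-6220101, minus strand: gaagattgtaGGTTCGAATCCtgccgtggt

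Distal sequence held LIN-35 summits less densely than the rest of the genome. It measured 13.7 Mb, 13.7% of the genome, and carried 53.6 members per Mb, against 69.0 reproducible summits per Mb in all other sequence. Summits within 2000 bp of a start reached 84.0 per Mb, those between convergent genes 36.8 per Mb, and those in gene bodies 21.7 per Mb. Distal sequence thus lay above gene bodies and below the surroundings of starts. Within intergenic sequence outside convergent gaps, density was 340 summits per Mb up to 500 bp from a start and 82.2 per Mb from 1001 to 2000 bp. Past the limit it was 66.7 per Mb from 2001 to 3000 bp, 57.0 per Mb from 3001 to 4000 bp, 48.2 per Mb from 4001 to 6000 bp, 39.5 per Mb from 6001 to 10000 bp and 23.7 per Mb beyond, where 17 summits lay. The pooled relaxed peaks that overlapped no reproducible peak, called relaxed-only here, have lower signal by construction, and their density was also lower farther from starts. It was 186 per Mb from 2001 to 3000 bp and 76.6 per Mb past 10000 bp.

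**Figure D1:**
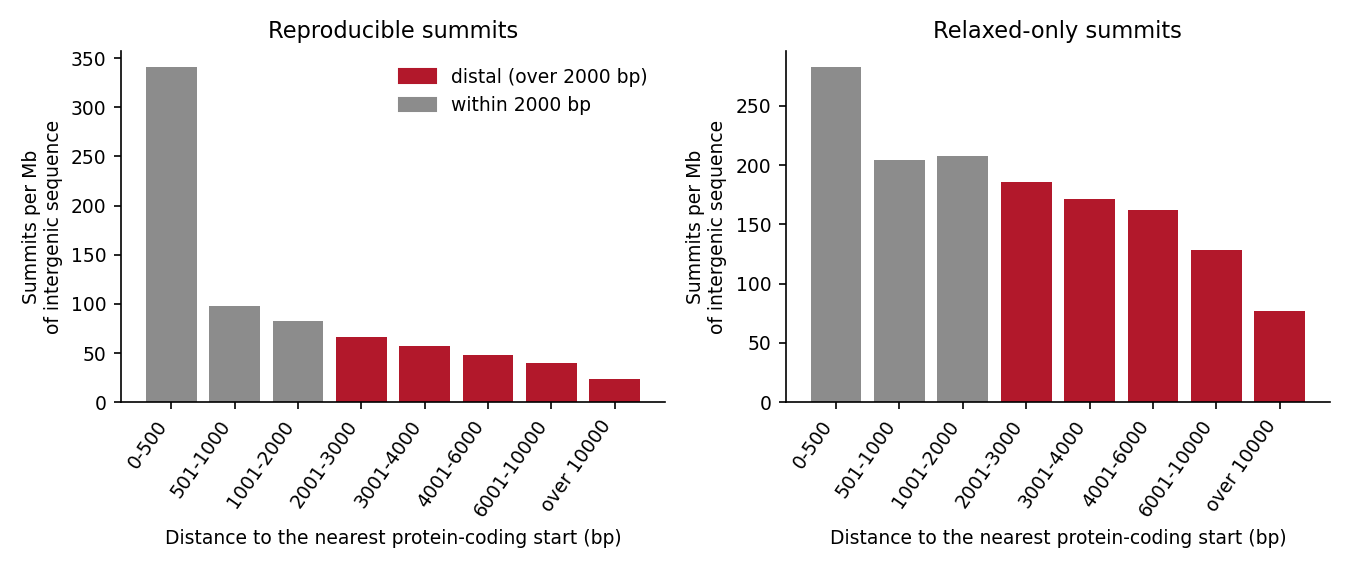
Density of summits in intergenic sequence outside convergent gaps (summits per Mb, y axis) by distance to the nearest protein-coding start (bp, x axis), for reproducible summits on the left and relaxed-only summits on the right. Red bars are distal and grey bars lie within 2000 bp; each bar past 2000 bp is lower than the one before it in both panels.

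The limit of 2000 bp cut through a continuous range. Just inside it lay members at 2003 bp from cec-2 (signal 105), 2004 bp from yap-1 (signal 85.3) and 2006 bp from C17G10.7 (signal 63.5). Just outside it, and so not members, were summits at 1998 bp between F38A6.4 and hif-1, the gene of the hypoxia-inducible transcription factor (signal 486), at 1990 bp between ZK370.4 and pdhk-2 (signal 142) and at 1989 bp between gck-4 and adm-2 (signal 55.4). Member distances had a median of 3362 bp, and the farthest member lay 16957 bp from any start, between F57G12.1 and cab-1 on chromosome X (signal 46.9). Signal had almost no relation to distance among the members (Spearman's rho -0.05 over 735 summits of the same list).

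Distal summits were weaker than those near starts. Their signal had a median of 84.7 with an interquartile range of 60.6 to 131, against a median of 102 and a range of 65.6 to 204 near starts. The median in gene bodies was 83.5, close to that of the members, and it was 104 between convergent genes. Among the 500 strongest reproducible summits, 4 were members, which is 0.544% of the members (0.212 to 1.39%), against 8.98% of near-start summits (8.25 to 9.76%). In the stronger part of the list, the first 3356 summits, there were 299 members (40.7%, 37.2 to 44.3%) and 51.9% of near-start summits (50.5 to 53.2%). These intervals did not overlap, but they cover counting error over peaks of the same libraries and not variation between worm cultures.

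**Figure D2:**
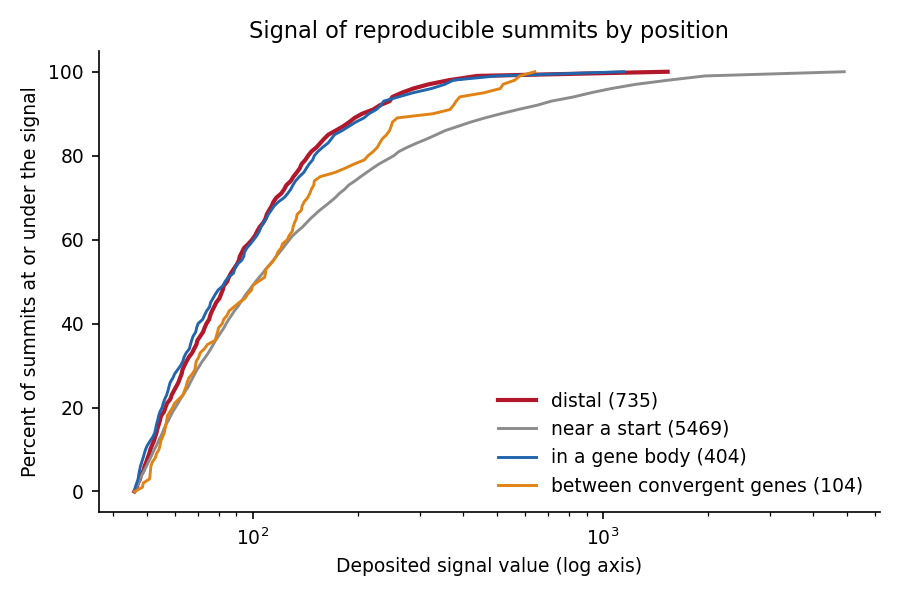
Cumulative distribution of the deposited signal value (log x axis) for reproducible summits by position, as percent of summits (y axis). The curve of the 735 distal members lies close to that of the gene-body summits and left of the near-start curve, whose upper end reaches 4903 against 1534 for the members.

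Distal relaxed peaks overlapped the reproducible list about as often as near-start relaxed peaks did. Of the 3027 distal peaks in the pooled relaxed list, 800 (26.4%, 24.9 to 28.03%) overlapped a reproducible peak, against 26.5% near starts, 25.17% between convergent genes and 10.5% in gene bodies. The share over all 30000 pooled relaxed peaks was 24.2%. A count of 734 members overlapped a peak of replicate 1 (background over all reproducible peaks 99.8%) and 700 (95.2%) overlapped 1 of its 6712 strongest peaks (background 96.5%). Replicate 2 had a peak at 675 members (91.8%, background 92.1%) and 1 of its 6712 strongest at 530 (72.1%, 68.8 to 75.2%; background 73%). The strongest peaks of both replicates overlapped 499 members (67.9%, background 69.9%). All these member shares lay near the background. The reproducible list draws on the same reads as both replicate lists, so these overlaps are not independent of it.

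Between replicates, the signals of members correlated with Spearman's rho 0.58 (n = 674 members with a peak in both lists), and near-start summits with 0.67 (n = 5026). The signal of the reproducible list followed replicate 1 closely over the members (rho 0.95) and replicate 2 less so (rho 0.64). Summits of replicate 1 lay a median of 3.5 bp from the member's summit, and those of replicate 2 a median of 31 bp. Agreement in replicate 2 depended on strength: among the strongest 245 members (signal 111 to 1534) 233 (95.1%) overlapped its strongest peaks, among the next 245 members 176 (71.8%) and among the weakest 245 members 121 (49.4%). Of all members with peaks in both lists, the one between C26C6.9 and goa-1, which encodes the G protein alpha subunit Go, differed most in rank. Ranked over the reproducible summits with a peak in both lists, it came 915 in replicate 1 (signal 294) and 6042 in replicate 2 (signal 2.60).

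**Figure D3:**
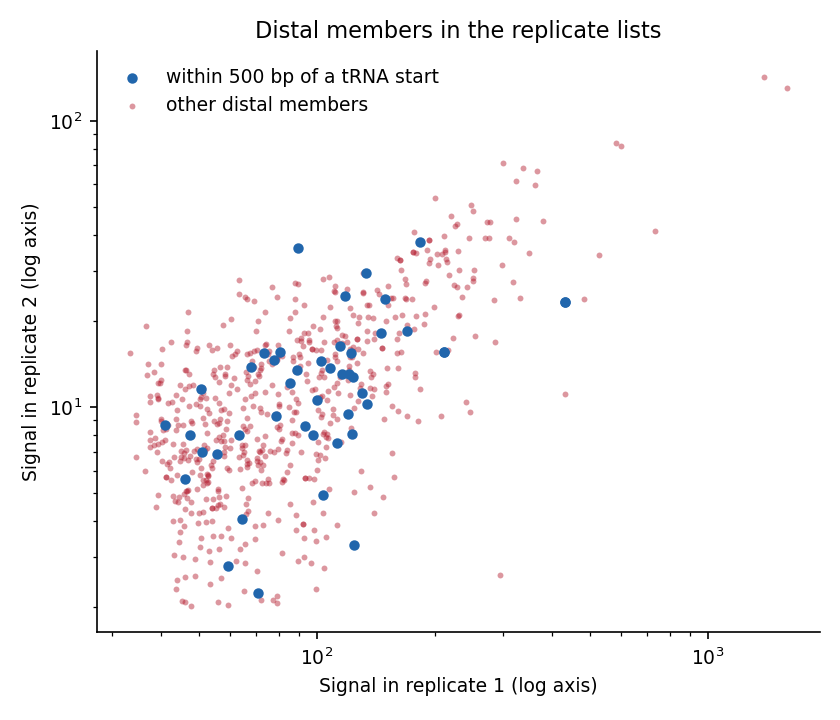
Signal of each distal member in the relaxed list of replicate 1 (x, log axis) and of replicate 2 (y, log axis), with members within 500 bp of a tRNA start in blue over the others in red. The cloud rises to the strongest member at 1393 and 142; the point at 1593 and 130 is a weak member near F53E10.5 that shares its peak with a stronger summit within 2000 bp of a start.

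The strongest member lay on chromosome II between R12C12.7 and H12I13.1 (chrII:6061545-6061874), 5465 bp from the nearest protein-coding start. Its signal was 1534, rank 113 of the reproducible list, with 1393 in replicate 1 (rank 122) and 142 in replicate 2 (rank 47), so both replicates placed it among their strongest peaks. It holds the E2F site and the CHR shown first above, 29 bp and 40 bp from the summit. The start of R12C12.8, annotated as a pseudogene, was 181 bp downstream of the summit. Next came a member between gid-8 and F53E2.2 on chromosome V, with a signal of 777, 734 in replicate 1 (rank 353) and 41.1 in replicate 2 (rank 530). A member between adm-2, an ADAM-family protease gene, and K02D3.1 on X had 683, with 600 in replicate 1 (rank 445) and 81.5 in replicate 2 (rank 166). The member between sgn-1 and F07H5.13 had 669, with 584 in replicate 1 (rank 458) and 83.7 in replicate 2 (rank 162), and it too lay upstream of a pseudogene, F07H5.5, at 175 bp. These 4 members ranked in the first 530 peaks of each replicate, and they are the only members among the 500 strongest reproducible summits.

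Among the other members of the strongest 15, several flank regulatory genes. Between ZK899.6 and gap-2, a Ras GTPase-activating protein gene, the signal was 565, with 525 in replicate 1 and 34.0 in replicate 2. Between aakg-1, a regulatory subunit of AMP-activated kinase, and gldi-8 it was 503, 8281 bp from the nearest start, with 481 in replicate 1 and 23.8 in replicate 2. Upstream of xol-1, the switch gene of sex determination and dosage compensation, a member 4876 bp away had 460, with 432 in replicate 1 (rank 616) and 23.4 in replicate 2 (rank 1230). Upstream of cki-1, a CDK inhibitor that stops the cell cycle, a member 4152 bp away had 443, with 432 in replicate 1 (rank 618) and 11.1 in replicate 2 (rank 3358). In that last case the replicates differed widely in rank. The nuclear hormone receptor gene nhr-88, the lipin gene lpin-1 with the mitochondrial gene letm-1, tpra-1 and fnip-2 flanked others of the 15, with signals of 430, 406, 428 and 389. Over all 15, signals ran from 372 to 1534, 2 held an E2F site, 4 a CHR and 1 a GATA site.

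Members lay close to tRNA starts more often than relaxed-only distal peaks did. tRNA genes are transcribed by RNA polymerase III from an A box and a B box inside the gene. Within 500 bp of a tRNA start lay 49 members (6.67%, 5.08 to 8.70%), against 0.853% of relaxed-only distal peaks (0.547 to 1.33%), while such positions make up 0.643% of distal sequence. Of these 49, 44 were within 100 bp, and the summit sat at a median of 12 bp past the tRNA start, with quartiles at -16 and 32 bp. Seen from the genes, 51 of the 105 tRNA genes that start in distal sequence (48.6%, 39.2 to 58.0%) had a member within 500 bp. The B box matched in 20 of the 49 (40.8%) and in 1 of the other 686 members (0.146%). Over all members it matched at 2.86% (1.88 to 4.33%). Other reproducible summits had 5.94% in gene bodies (4.02 to 8.69%), 4.81% between convergent genes (2.07 to 10.8%) and 1.97% near starts (1.64 to 2.38%). The members' interval overlaps each of these. With convergent gaps kept, 7.63% of 839 summits lay near a tRNA start. That is above the 6.67% of the members alone, so summits between convergent genes had a larger share than members. The share of near-start and gene-body summits is not given here. The signal of the 49 members had a median of 110, against 82.6 for the other members, and 39 of 49 (79.6%, 66.4 to 88.5%) overlapped the strongest peaks of replicate 2, against 71.6% of the others (68.1 to 74.8%), intervals that overlap. The strongest of the 49 was the member upstream of xol-1 described above (signal 460), 320 bp past the start of C18A11.t2. A weaker member lay 118 bp past that start (52.7), and another lay at B0350.t1 (57.3). Each had the same replicate peaks as the stronger member there, so the 49 count both places more than once. At B0350.t1, beside unc-44, the signal of the stronger member was 229, with ranks of 1290 in replicate 1 and 2186 in replicate 2. At C53C7.t2, beside npr-10, it was 222, with ranks of 1526 and 599 in replicates 1 and 2, and at ZK822.t1, beside srlf-32, it was 186, with ranks of 1660 and 1699. On chromosome X lay 25 of the 49 (51.0%, 37.5 to 64.4%), as did 66 of the 105 tRNA genes in distal sequence (62.9%, 53.3 to 71.5%).

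Small nucleolar RNA genes, whose products guide chemical modification of ribosomal RNA, had 13 members within 500 bp of their starts (1.77%, 1.04 to 3.00%), against 0.808% of relaxed-only distal peaks (0.512 to 1.27%) and 0.296% of distal sequence. The intervals of members and relaxed-only peaks overlap slightly. The median signal of the 13 was 162, against 83.2 for the other members, and 12 of the 13 were in the stronger 3356 summits. The strongest of the 13, with 288, was the member between C26C6.9 and goa-1 described above, for which an ncRNA start is nearer. Among those with a snoRNA start as the nearest non-coding start, F37A8.7 came first with a signal of 248, with 231 in replicate 1 and 21.1 in replicate 2. ZK643.9 had 232, with 216 in replicate 1 and 15.9 in replicate 2. Others were T19B4.8 near the LIM homeobox gene lim-7 (224), Y74C9A.6 at the left end of chromosome I (221) and Y23H5B.10, 16211 bp from the nearest protein-coding start (164). The snRNA gene M163.13 had 1 member 41 bp upstream of its start (137). MicroRNA starts had 7 members (0.952%, 0.462 to 1.95%), against 0.674% of relaxed-only distal peaks (0.408 to 1.11%). The intervals overlap. Of the 7, 3 lay within 200 bp of the start, among them the members 153 bp upstream of cel-mir-75 (signal 67.9) and 167 bp upstream of cel-mir-235 (56.4), and the median signal over the 7 was 79.2. Genes annotated only as ncRNA had 152 members (20.7%, 17.9 to 23.8%), against 14.9% of relaxed-only distal peaks (13.5 to 16.4%) and 9.24% of distal sequence. These classes are not exclusive, since a member can lie near genes of several types. When genes of every type count as genes, 309 of the 735 members stay distal and 394 lie within 2000 bp of some annotated start. A further 30 fall between convergent genes and 2 inside a gene farther from starts. Nearness to a start was counted first, so members inside a gene but near a start are among the 394. Bodies of non-coding genes other than piRNA genes, pseudogenes included, held 80 members (10.9%, 8.83 to 13.3%). The share of relaxed-only distal peaks there was 11.3% (10.02 to 12.7%), an interval that overlaps.

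Few members lay inside pseudogenes, and those near pseudogene starts lay mostly upstream. Inside pseudogene bodies lay 4 members (0.544%, 0.212 to 1.39%), against 4.85% of relaxed-only distal peaks (4.03 to 5.82%) and 9.58% of distal sequence. Within 500 bp of a pseudogene start lay 20 members (2.72%, 1.77 to 4.17%), against 3.23% of relaxed-only distal peaks (2.58 to 4.05%). Of those 20, 19 (95%, 76.4 to 99.1%) were upstream of the nearest pseudogene start, against 40 of 72 relaxed-only distal peaks (55.6%, 44.1 to 66.5%) and 47.8% of distal sequence that near. These included the first and the fourth member by signal, described above, a member 35 bp upstream of Y17D7C.3 (signal 359, with 330 in replicate 1 and 24.1 in replicate 2) and one 245 bp upstream of arrd-21, an annotated pseudogene with an arrestin-domain name (signal 308, with 286 in replicate 1 and 16.8 in replicate 2). Signals over the 20 ran from 47.4 to 1534 with a median of 74.8. Starts of piRNA genes had 33 members within 500 bp (4.49%, 3.21 to 6.24%), against 3.32% of relaxed-only distal peaks and 8.84% of distal sequence. On chromosome IV, which carries the piRNA clusters, members numbered 26.9 per Mb within 500 bp of piRNA starts and 48.7 per Mb in its other distal sequence.

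The bases around the summits differed from the sequence beside them. In the 151-bp windows centred on members, GC content had a median of 42.4%, against 32.5% in windows 500 bp to each side, 38.4% at relaxed-only distal peaks and 33.8% over the 89087 windows that tile distal sequence. Bases masked as repeats averaged 19.0% at members and 40.7% over the tiles. Near-start summits had a median GC content of 41.7%, close to that of the members.

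GATA sites matched at a larger share of members than of relaxed-only distal peaks or distal tiles. They are read by GATA factors such as ELT-2, the main regulator of gut genes in worms. A TGATAA lay within 75 bp of 223 members (30.3%, 27.1 to 33.8%), against 21.2% of relaxed-only distal peaks (19.5 to 22.9%), 13.2% of distal tiles and 22.3% of near-start summits (21.2 to 23.4%). Gene-body summits had 25.7% (21.7 to 30.2%), an interval that overlaps that of the members. The size of the difference from relaxed-only peaks and tiles depended on GC content. In windows of 35 to 40% GC, members had 48.8% (42.1 to 55.6%), relaxed-only peaks 23.8% and tiles 11.8%. At 40 to 45% GC, members had 25.14% (19.3 to 32.1%), relaxed-only peaks 16.4% (13.3 to 20.1%), tiles 9.36% and near-start summits 21.2%. At 45 to 50% GC, members had 16% (10.99 to 22.7%), relaxed-only peaks 11.6% (8.56 to 15.5%) and tiles 6.19% (5.6 to 6.84%). In the last 2 bands the intervals of members and relaxed-only peaks overlap, while those of the tiles lie below the members in all 3. Near-start summits had 31.0% (28.7 to 33.5%) at 35 to 40% GC, below the members. Their intervals overlap those of the members at 40 to 45% GC (19.1 to 23.4%) and at 45 to 50% GC (11.2%, 9.44 to 13.2%). The share was lowest among the strongest members: 14.7% (10.8 to 19.7%) in the strongest 245, 36.3% in the next 245 and 40% (34.1 to 46.2%) in the weakest 245. Members with the site had a median signal of 70.6, and those without it 93.0. The share that overlapped the strongest peaks of replicate 2 was 72.6% (66.4 to 78.1%) with the site and 71.9% (67.8 to 75.6%) without it, and these intervals overlap.

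E-boxes and GA repeats showed the reverse order over signal. CACGTG, read by bHLH factors of the Myc and Max type, matched in 87 members (11.8%, 9.70 to 14.4%), 5.30% of relaxed-only distal peaks (4.44 to 6.31%), 1.98% of tiles and 9.38% of near-start summits (8.64 to 10.2%). It matched in 13.9% of gene-body summits (10.8 to 17.6%), an interval that overlaps that of the members. Its share among members was 16.3% (12.2 to 21.5%) in the strongest 245, 11.8% in the next 245 and 7.35% (4.70 to 11.3%) in the weakest 245. Members with an E-box had a median signal of 107, against 82.0 without it. In windows of 40 to 45% GC the E-box share was 14.3% (9.87 to 20.2%) at members and 7.64% (5.52 to 10.5%) at relaxed-only peaks. These intervals overlap, as they did at 35 to 40% and at 45 to 50% GC, while the tiles lay below the members in each band. GAGAGAGA matched in 84 members (11.4%, 9.33 to 13.9%), 5.57% of relaxed-only distal peaks, 1.29% of tiles and 7.28% of near-start summits (6.62 to 7.996%). It matched in 9.16% of gene-body summits (6.72 to 12.4%), where the interval again overlaps that of the members. In windows of 40 to 45% GC it matched in 10.9% of members (7.06 to 16.3%) and 6.74% of relaxed-only peaks (4.76 to 9.46%). These intervals overlap, as they did at 35 to 40% and at 45 to 50% GC, while tiles lay below members in each band. At 45 to 50% GC members had 19.3% (13.8 to 26.4%), above near-start summits (10.3%, 8.66 to 12.3%). In the lower bands the intervals of members and near-start summits overlap. The GA repeat share was lower at weaker members too, but the intervals of the strongest 245 (15.1%, 11.2 to 20.1%) and the weakest 245 (8.16%, 5.35 to 12.3%) overlap. Of the 2080 possible words of 6 bases, with each word counted together with its reverse complement, GAGAGA ranked 1 by the difference between members (36.7%) and tiles (8.02%), TGATAA ranked 6 and CACGTG 35. The 5 words ranked before TGATAA all contain AGAG.

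The DREAM sites, E2F and CHR, were compared in the same windows. E2F sites lay at 73 members (9.93%, 7.97 to 12.3%), 8.17% of relaxed-only distal peaks (7.11 to 9.38%), 4.98% of tiles and 13.02% of near-start summits (12.2 to 13.9%). The members' interval overlaps those of relaxed-only peaks and near-start summits, and lies above the tiles. In windows of 40 to 45% GC the E2F share was 10.3% (6.61 to 15.7%) at members and 8.36% (7.85 to 8.89%) in tiles, where the intervals overlap, as they did at 35 to 40% and at 45 to 50% GC. CHR matches were less frequent at members (26.8%, 23.7 to 30.1%) than at relaxed-only distal peaks (37.0%), near-start summits (36.3%, 35.1 to 37.6%) and tiles (48.4%). Gene-body summits, with 25.7% (21.7 to 30.2%), were close to the members. The CHR is AT-rich, and the order of members, relaxed-only peaks and tiles depended on GC content. At 40 to 45% GC the shares were 24.0% (18.3 to 30.8%) at members and 31.7% (30.9 to 32.6%) in tiles. At 45 to 50% GC they were 24.7% (18.5 to 32.1%) at members, 22.6% at relaxed-only peaks and 22.2% (21.2 to 23.3%) in tiles, where the intervals overlap. Near-start summits had larger CHR shares than members at 35 to 40%, 40 to 45% and 45 to 50% GC. At 40 to 45% GC they had 37.6% (35.04 to 40.2%), above the members' interval. At 35 to 40% GC (41.8%, 39.3 to 44.3%) and at 45 to 50% GC (29.3%, 26.6 to 32.1%) their intervals overlap those of the members. Over all members CHR was below GATA, but among the strongest 245 members its share was 24.5% (19.5 to 30.2%), the largest of GATA, E-box, GA repeat, E2F and CHR there, although its interval overlaps those of the E-box, the GA repeat and GATA. Both sites together occurred at 30 members (4.08%, 2.87 to 5.77%) and at 6.84% of near-start summits (6.20 to 7.54%). None of E2F, CHR and GATA matched in 341 members (46.4%). A match is a run of letters, and binding of these factors was not measured here.

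**Figure D4:**
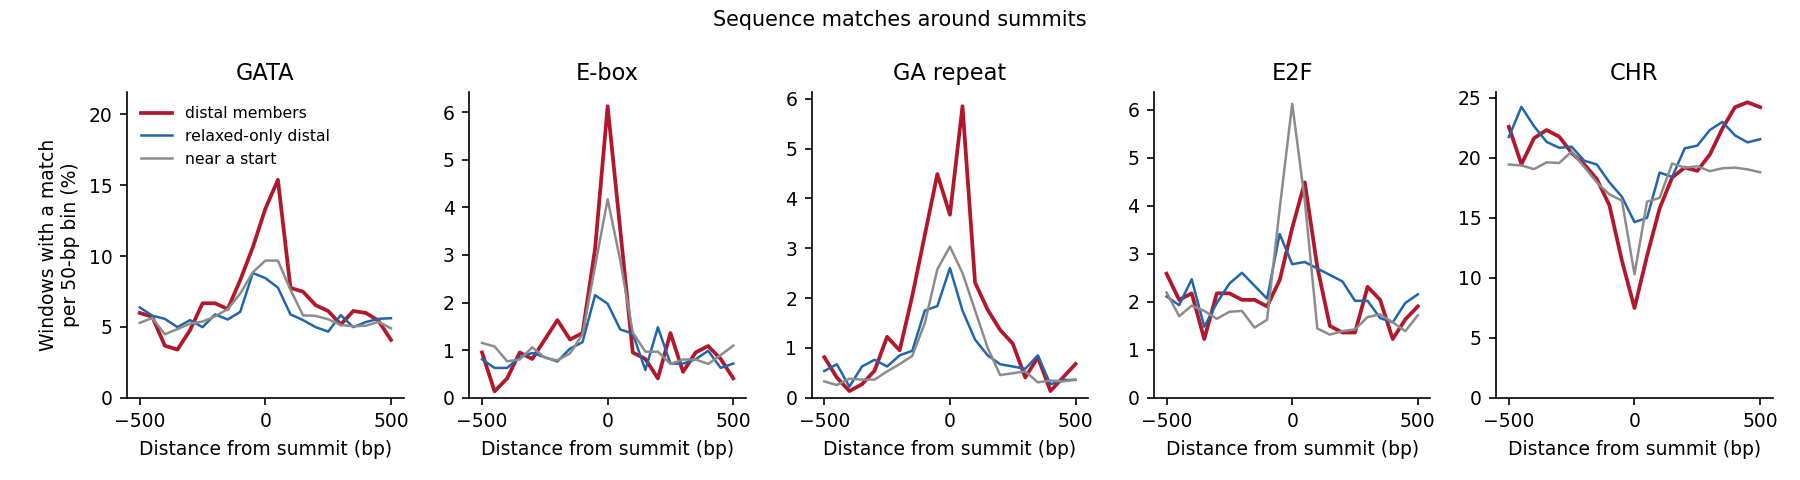
Percent of windows with a match in each 50-bp bin (y axis) by distance from the summit (bp, x axis), for distal members in red, relaxed-only distal peaks in blue and near-start summits in grey, in 5 panels by match. At members GATA and E-box matches peak within 50 bp of the summit (15.4% and 6.12%), and CHR matches are lowest in the central bin (7.48%).

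The positions of the matches followed the summits. At members, GATA matches reached 13.3% of windows in the 50-bp bin at the summit and 15.4% in the bin centred 50 bp above it, against 5.99% and 4.08% in the bins 500 bp to either side. E-box matches were at 6.12% in the central bin and at 0.952% and 0.408% in the outermost bins. CHR matches ran the other way, with 7.48% in the central bin and 22.6% and 24.2% in the outermost bins.

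Nuclear hormone receptor genes neighboured distal members more often than their share of distal sequence. This large family of ligand-regulated transcription factors flanked 56 members (7.62%, 5.91 to 9.77%), against 5.07% of relaxed-only distal peaks (4.24 to 6.07%) and 3.802% of distal sequence. The 56 lay in 32 of the family's 111 gaps, so members share gaps and are not independent. The intervals of members and relaxed-only peaks overlap slightly. The strongest were those next to nhr-88 (signal 430), nhr-61 (326), nhr-20 (318) and nhr-120 (181). Genes of the gut, such as the intermediate filament gene ifb-2, the ezrin gene erm-1, the desaturase gene fat-5, the protease gene asp-1 and eps-8, flanked 6 members (0.816%, 0.375 to 1.77%), against 0.674% of relaxed-only distal peaks (0.409 to 1.11%) and 0.308% of distal sequence. Their signals ran from 48.6 to 111.

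Cell cycle regulators flanked 5 members (0.680%, 0.291 to 1.58%), against 0.853% of relaxed-only distal peaks (0.547 to 1.33%) and 0.289% of distal sequence. Of these 5, 2 were upstream of cki-1 (signals 443 and 125), and 1 each flanked cdk-4, the G1 kinase (250), lin-23, which encodes an F-box ubiquitin ligase subunit (109), and wee-1.3, a kinase that inhibits CDK-1 (106). Genes of bHLH factors flanked 10 members (1.36%, 0.741 to 2.49%), against 0.404% of relaxed-only distal peaks (0.213 to 0.766%) and 0.901% of distal sequence. The members' interval overlaps that of relaxed-only peaks slightly and includes the share of distal sequence. These 10 lay in 3 gaps, and 6 of them lay beside mxl-3, a Max-like gene, with signals of 51.0 to 267. GATA factor genes flanked 2 members (0.272%, against 0.345% of distal sequence), both next to elt-3 (61.6 and 47.7). The heterochronic genes, which time larval development, flanked 1 (0.136%, against 0.315%), next to lin-14 (49.0). Homeobox genes flanked 8 (1.09%, 0.553 to 2.13%), against 1.93% of relaxed-only distal peaks (1.44 to 2.59%) and 2.14% of distal sequence. Cuticle collagens flanked 8 (1.09%, against 1.18% of distal sequence). C-type lectins flanked 3 (0.408%, against 0.922%), and Wnt, Notch and EGF signalling genes 3 (0.408%, against 0.529%). In each of these lists, from GATA factors to signalling genes, the intervals of members and relaxed-only peaks overlap. Neuropeptide and insulin-like genes flanked 2 members (0.272%, 0.0747 to 0.987%), against 0.718% of relaxed-only distal peaks (0.443 to 1.16%) and 2.65% of distal sequence, and chemoreceptor genes 26 (3.54%, 2.43 to 5.13%), against 3.82% of relaxed-only peaks (3.10 to 4.70%) and 6.20% of distal sequence. Which gene a distal summit acts on was not measured here.

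Several gaps between genes held more than 1 member. The members fell in 497 of the 3483 gaps that hold distal sequence (14.3%), and 385 members (52.4%) shared their gap with another. A single member lay in 350 gaps, 2 lay in 91, 3 in 37 and 4 in 12, and 7 gaps held 5 or more. Orientation of the flanking genes followed the sequence available: 470 members (63.9%) lay between genes on the same strand, which hold 64.0% of distal sequence, and 264 (35.9%) between divergent genes, which hold 35.5%. Density was 72.3 members per Mb in gaps up to 5000 bp long and 31.7 per Mb in gaps over 20000 bp. The nearest other reproducible summit was a median of 2267 bp away, and 151 members had one within 1000 bp.

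The fullest gap, 20938 bp long between got-2.2 and W05H9.4 on X, held 8 members with signals of 49.2 to 293, 6 of which overlapped the strongest peaks of replicate 2. Its strongest member had 251 in replicate 1 and 48.5 in replicate 2. The next, 35563 bp between irld-18 and dmd-6, a DM-domain gene on IV, held 7 members of 64.8 to 251, 5 of them within 7 kb of dmd-6. Next were 4 gaps with 6 members each. The longest of these, 22871 bp between asp-13 and ZC190.4 on V, had signals of 47.7 to 93.2, and 3 of its 6 overlapped the strongest peaks of replicate 2. The others were the gap between snt-1 and egl-27 (54.3 to 121), the gap between F54F12.1 and Y39E4B.6 (62.8 to 423) and the gap of mxl-3 and C49F8.15, where all 6 overlapped the strongest peaks of replicate 2. In the 16917-bp gap upstream of cki-1 the 2 members lay 4152 and 5001 bp from its start, and a further reproducible summit at 1986 bp (signal 122) fell under the limit. The member at 5001 bp had 115 in replicate 1 and 7.59 in replicate 2.

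**Figure D5:**
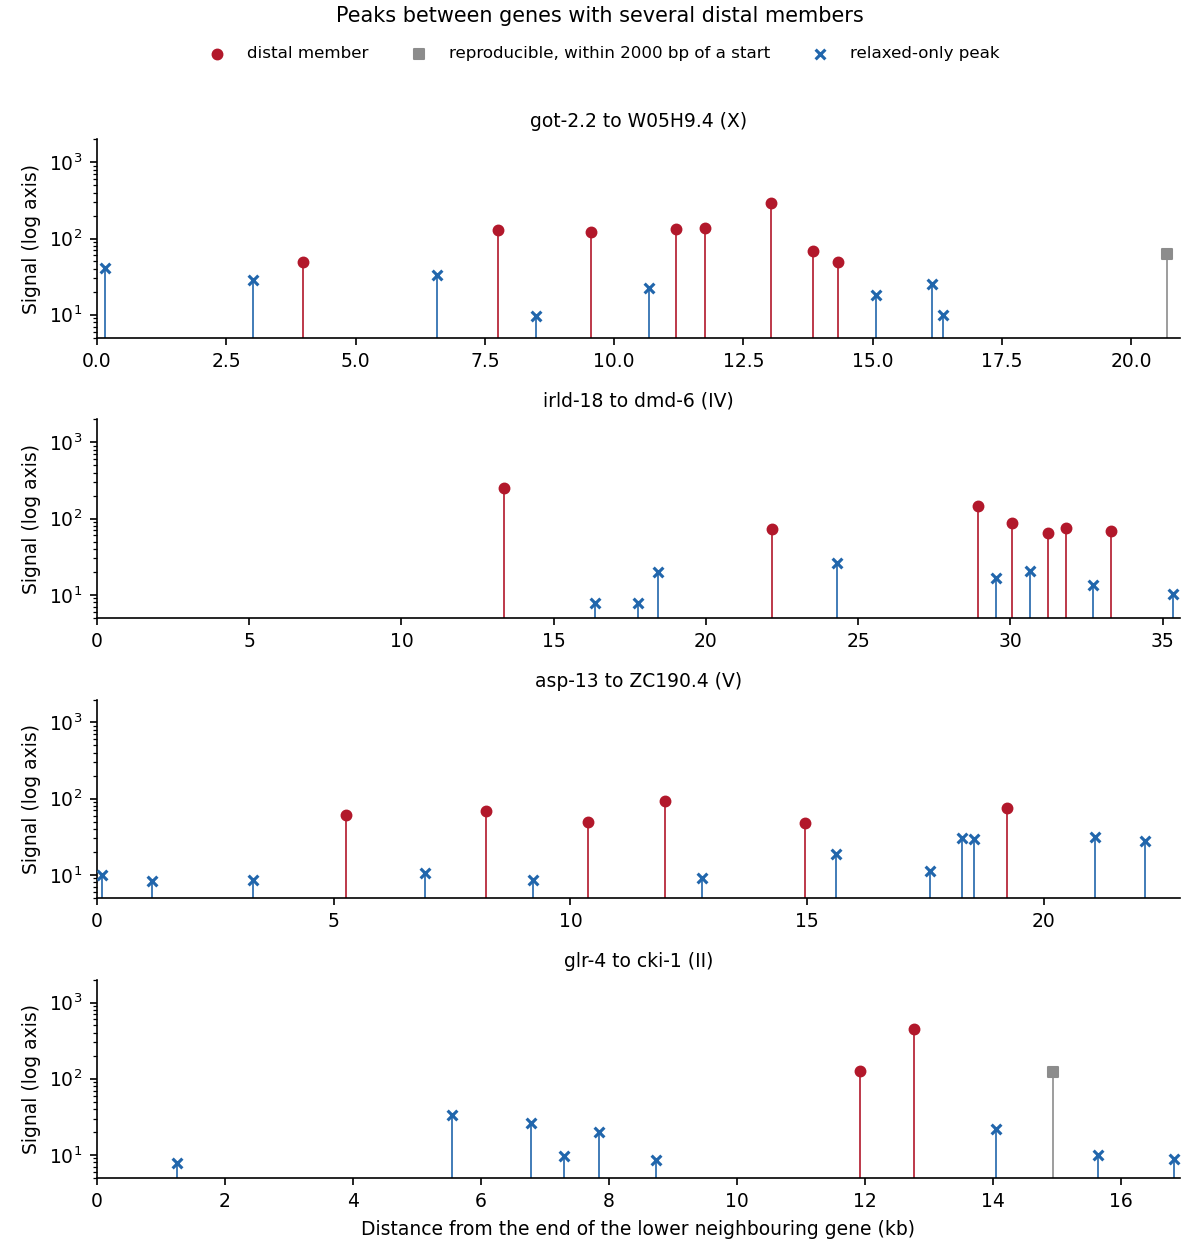
Signal (log y axis) of every peak in the 2 gaps with most distal members, in the longest of the 4 gaps with 6 members and in the gap upstream of cki-1, by distance from the end of the lower neighbouring gene (kb, x axis). Red circles are distal members (8, 7, 6 and 2 by panel from the top), the grey squares are reproducible summits within 2000 bp of a start and blue crosses are relaxed-only peaks.

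By chromosome, members numbered 108 on I, 110 on II, 112 on III, 115 on IV, 111 on V and 179 on X. Per Mb of distal sequence the order was I (70.5), III (70.1), II (61.1), X (52.8), V (44.0) and IV (40.2). The high count on X, 14.8% of its summits (12.9 to 16.9%) against 9.69 to 11.5% on the autosomes, went with 19.1% of X being distal sequence, and per Mb X was close to the autosomes together (53.9). With each chromosome cut into 3 equal parts, density in the central part was 62.7 per Mb on autosomes and 61.5 per Mb on X, and in the 2 outer parts it was 49.9 per Mb on autosomes and 49.3 per Mb on X. Chromosome III had the opposite order, with 61.2 per Mb in the central part and 74.6 per Mb in the outer parts.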

How the data were processed

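LIN-35 ChIP-seq peak lists of 2 biological replicates of whole L1 larvae were used in ce11 coordinates. The authors deposited, per the labels and file notes, relaxed lists of replicate 1 (30000 peaks), replicate 2 (26341) and both pooled (30000), and a final list of 6712 peaks that passed an irreproducible discovery rate threshold, called reproducible. The signal value and the −log10 q-value of each peak, and the summit offset, are as deposited by the authors; the −log10 q-value ran from 3.53 to 4.01 among members. No source used here names the aligner, the caller or that threshold. Every column used was assigned to a list.

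Gene models were Ensembl release 115 (19973 protein-coding genes, 29304 start positions), and sequence came from the RefSeq genome of the same assembly, WBcel235. Of 2761 non-coding genes without a symbol, 2756 took RefSeq's name at identical coordinates. Overlaps needed 1 bp; a replicate's value is its strongest overlapping peak, and 4 members share coordinates with another peak. Intervals are 95% Wilson intervals and cover counting error only. With 1 group no test was run. The named members are the strongest 15, the 5 farthest from a start, the 3 nearest the limit on each side, the strongest per site, the one with the largest rank difference, those near small RNA starts and the 3 fullest gaps, with ties settled by length; others were chosen after their values were seen. The members, the 12 gene lists and the rules were chosen with earlier results of these data known. Placement equalled an independent count of the same rule at 100% of 2000 random positions. Overlap counts of the pooled and reproducible lists equalled those of bedtools 2.31.1, and the motif search found 100% of planted motifs. Scripts ran in Python 3.11.15 with pandas 2.3.3, numpy 2.4.6 and matplotlib 3.10.9. Alternatives were other distances, gene types, lists, overlaps and windows.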

Additional observations from a re-analysis of the deposited data

How the results depend on the processing

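No paired analysis was possible because there is only 1 group. Over 13 results and 13 alternative settings, 81 of 116 values stayed within the interval of the main value (or within 1.5 times a count) and 35 moved. The number of members follows the rule: it was 1307 (19.5% of summits) at a limit of 1000 bp, 432 (6.44%) at 3000 bp, 314 (4.68%, of which 309 are among the 735) when genes of every type count, and 299 (8.91%) in the stronger part of the list, and members were 12.5% of summits with convergent gaps kept. Density in distal over all other sequence, 0.777 in the main analysis, was 0.931, 0.684 and 0.618 at 1000 bp, at 3000 bp and in the stronger part. In that part the members' median rank was 66.7% of the list, 100% and 91.3% overlapped the strongest peaks of replicates 1 and 2, 10.9% of distal relaxed peaks overlapped a reproducible peak, and 9.36% of members lay near tRNA starts, 17.1% had GATA, 16.4% an E-box and 14.05% a GA repeat, and CHR, at 25.08%, was then above GATA. With 50% reciprocal overlap the replicate shares were 91.7% and 63.9%, and 24.3% of distal relaxed peaks overlapped a reproducible peak, against 24.7% with genes of every type. Windows of 50 bp to each side held E2F at 6.80%, CHR at 17.4%, GATA at 22.7% and GA repeats at 8.16% of members, and windows of 150 bp held E2F at 14.6%, CHR at 54.6%, GATA at 41.9%, E-boxes at 15.2% and GA repeats at 16.1%, which again put CHR above GATA; wider windows hold more sequence. GATA at 40 to 45% GC, a setting chosen after seeing the data, was at 25.14%. Leaving out either replicate, taken as the 6712 strongest peaks of the other, gave a median rank of 53.6 to 59.2%, against 57.9% in the main analysis, and the number, density, tRNA share and 5 sequence shares stayed within their intervals. Read depth is unknown, so what it limits could not be stated; the intervals count peaks, not worm cultures.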
